A study of Mus musculus with 6 samples.

Results

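The genes described here are 10 transcription factors that set up and maintain the fat cell: the nuclear receptors Ppara, Ppard and Pparg, their partner receptors Rxra, Rxrb and Rxrg, the C/EBP factors Cebpa, Cebpb and Cebpd, and the zinc-finger factor Klf15. They were taken by symbol from a table of 35976 genes measured by RNA sequencing in primary mouse adipocytes (6 libraries), and all 10 were found and passed the filter on low values (10 or more normalized counts in 2 or more libraries). All cells were Ppargc1a(fl/fl), that is, both copies of Ppargc1a carry loxP sites. Ppargc1a encodes PGC-1alpha, a coactivator that binds PPARs. The cells first received an adenovirus encoding GFP or Cre, the recombinase that cuts out DNA between loxP sites. They then received control siRNA or an siRNA against Rbm43, which encodes an RNA-binding protein, and were fully differentiated before RNA was taken. The 3 groups had 2 libraries each: a control group (control siRNA after GFP virus), a knockdown group (Rbm43 siRNA after GFP virus) and a Cre group (Rbm43 siRNA after Cre virus). Control siRNA after Cre virus was not analysed here, so an effect of the Cre virus itself and an effect of Ppargc1a excision cannot be told apart. The siRNA is named without its sequence, and effects it may have on other mRNAs cannot be told apart from those of Rbm43 loss.

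PPARs are nuclear receptors that bind fatty acids and their derivatives. Each PPAR pairs with an RXR, and the pair binds a direct repeat of the sequence AGGTCA with 1 base between the repeats (DR1). During fat cell formation Cebpb and Cebpd are switched on early, they switch on Pparg and Cebpa, and these then keep each other on in the mature cell. Pparg and Cebpa drive lipid storage and adipokine genes, Ppara drives fatty acid oxidation, and Klf15 acts on Pparg and on glucose and amino acid genes.

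In the knockdown group (means of 2 libraries), Ppara mRNA was 2.5 times and Pparg mRNA 1.56 times its level in the control group, and the low-abundance partner Rxrg was 1.69 times its level. Cebpa moved the other way and fell by 22.3%, while Cebpb was 24.2% higher. Between the knockdown group and the Cre group, which had the same siRNA, Ppara fell by 48.1%, Pparg fell by 22.6% and Cebpa fell by 14.9%. Cebpa was therefore lower in each of the 3 comparisons. Ppard, Rxra, Rxrb, Cebpd and Klf15 did not pass the test in any comparison, with Cebpd just outside the threshold between the Cre and knockdown groups. The calls of Ppara, Pparg and Cebpa between those groups depended on the fit used, as given below.

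The libraries held 15775398 to 21961724 reads in genes, and a normalized count, the unit of all levels below, is a read count divided by 1 size factor per library. For Rbm43 they were 185 and 224 in the control group, 43.7 and 46.6 in the knockdown group, and 53.8 and 32.5 in the Cre group, so the siRNA target was lower in all 4 libraries labelled Rbm43 siRNA. Ppargc1a had 163 and 202, then 399 and 423, then 463 and 469 in the same order. Its count was not lower in the libraries labelled Cre virus, but reads from exons that are not floxed enter it too, so it does not check excision. The adipocyte markers Adipoq and Fabp4 were high in every library, from 18218 to 23077 and from 125493 to 191083 normalized counts. Another adipocyte marker, Lep, was at 84.3 to 147. The fibroblast marker Col1a1, from 229709 to 271898, and the mural cell marker Acta2, from 30048 to 44276, were high as well. They were the highest of their lists. The lowest were Dpp4 for fibroblasts, at 5.20 to 11.7, and Rgs5 for mural cells, at 9.74 to 36.2. The lymphocyte marker Cd8a and the muscle markers Myf5 and Ckm were at 0 in every library. The samples are called biological duplicates without naming animals or cultures, so p-values measure the spread between these libraries, which may be partly technical. Libraries of a group differed beyond counting noise, with a chi-square per degree of freedom of 3.98 in the control group, 2.63 in the knockdown group, and 1.72 in the Cre group. In such cultures fewer adipocytes and less RNA per adipocyte cannot be told apart.

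The start regions of 4 of the 5 factors whose mRNA changed are shown here, because some of these factors are known to act on each other's promoters. RefSeq windows (GRCm38.p6, plus strand, 250 bases before to 50 after the start) matched 9 of the 10 genes, with 14 windows. Short motifs were searched on both strands and are in capitals: AGGTCA, the nuclear receptor core (in 16.3% of all 32851 mouse windows), TTGCNNAA, the C/EBP core (10.8%), and CCNCNCCC, a GC-rich core bound by KLF factors (49.5%). Where matches overlap, the capitals run on.
Pparg, upstream start, chr6:115360894-115361193: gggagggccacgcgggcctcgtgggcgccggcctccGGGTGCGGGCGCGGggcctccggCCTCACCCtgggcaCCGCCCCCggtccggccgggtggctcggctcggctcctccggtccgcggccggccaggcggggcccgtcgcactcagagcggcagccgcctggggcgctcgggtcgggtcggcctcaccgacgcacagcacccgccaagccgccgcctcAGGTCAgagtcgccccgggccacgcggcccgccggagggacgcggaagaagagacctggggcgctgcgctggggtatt
Pparg, downstream start, chr6:115421816-115422115: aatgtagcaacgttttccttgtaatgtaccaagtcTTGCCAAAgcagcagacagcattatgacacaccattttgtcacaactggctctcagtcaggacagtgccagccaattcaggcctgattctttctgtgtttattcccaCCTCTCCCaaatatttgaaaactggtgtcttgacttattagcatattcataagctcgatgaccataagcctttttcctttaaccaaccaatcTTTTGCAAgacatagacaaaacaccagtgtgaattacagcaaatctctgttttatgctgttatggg
Ppara, chr15:85735526-85735825: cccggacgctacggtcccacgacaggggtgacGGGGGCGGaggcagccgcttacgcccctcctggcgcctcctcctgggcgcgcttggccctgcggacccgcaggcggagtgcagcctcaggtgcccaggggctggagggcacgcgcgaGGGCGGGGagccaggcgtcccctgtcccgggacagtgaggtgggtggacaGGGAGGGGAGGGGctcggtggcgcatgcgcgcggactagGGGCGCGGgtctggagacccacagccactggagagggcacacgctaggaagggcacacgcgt
Rxrg, downstream start, chr1:167618015-167618314: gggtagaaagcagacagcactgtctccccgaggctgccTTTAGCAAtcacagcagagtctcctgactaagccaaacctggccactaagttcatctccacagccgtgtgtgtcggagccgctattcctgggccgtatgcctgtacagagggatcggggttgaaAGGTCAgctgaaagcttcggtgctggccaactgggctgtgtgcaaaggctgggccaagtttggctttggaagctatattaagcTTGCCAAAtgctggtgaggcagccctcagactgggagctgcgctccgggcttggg
Cebpa, chr7:35119043-35119342: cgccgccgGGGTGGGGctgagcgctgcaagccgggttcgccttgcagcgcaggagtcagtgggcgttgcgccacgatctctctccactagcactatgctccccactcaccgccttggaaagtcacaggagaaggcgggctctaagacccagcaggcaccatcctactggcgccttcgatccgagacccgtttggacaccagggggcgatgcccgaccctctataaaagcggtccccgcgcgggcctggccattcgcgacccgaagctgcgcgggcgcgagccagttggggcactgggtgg
Pparg had 3 windows and Rxrg 2, of which those shown include the ones with C/EBP matches. The downstream Pparg window, at the start of the mRNA for PPARgamma2, the isoform largely limited to fat, held 2 matches to the C/EBP core, TTGCCAAA at position -215 and TTTTGCAA at -16 from the start. The upstream Pparg window held no C/EBP core, 4 KLF cores and AGGTCA at -28. A Pparg window between these, not shown (chr6:115362099-115362398), held no C/EBP core, 2 KLF cores and AGGTCA at -9. The downstream Rxrg window held 2 C/EBP cores, at -212 and -5, and AGGTCA at -88, while the upstream one, not shown (chr1:167598112-167598411), held no match to any of these motifs. The Ppara window held 5 KLF cores and no other match, and the Cebpa window held 1 KLF core. The window of Cebpb, whose mRNA changed too, is not shown and held 6 KLF cores and no other match. Among the 14 windows only the downstream Pparg and Rxrg windows held a C/EBP core, where 10.8% of all windows held one, so 2 of 14 is near that background. A site that differs from the letters searched is not matched, so a window without a match may still hold a site. No window of these genes held DR1, which was found in 0.0396% of all windows (13 windows). These are matches of letters and not measured binding, and the gene counts do not show which Pparg start was in use.

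Among the PPARs, Ppara (mm10 chromosome 15, 85734983 to 85802819) had the largest log2 fold changes of the 10 factors in the 2 comparisons with the knockdown group. For the Cre group against the control group those of Cebpa and Rxrg were larger. It encodes PPARalpha, the receptor best known for fatty acid oxidation in liver and brown fat. Its normalized counts were 848 and 646 in the control group, 1818 and 1918 in the knockdown group, and 997 and 942 in the Cre group. The 2 knockdown libraries lay far above the other 4, and the Cre libraries lay slightly above the control group, with no overlap between any groups. The log2 fold change, taken on log2(normalized count + 1) here and below, was 1.33 ± 0.09 for knockdown against control (SE, limma with Benjamini-Hochberg adjustment over 14211 genes, adjusted p = 3.92e-09). For the Cre group against the knockdown group it was −0.95 ± 0.09 (limma, adjusted p = 2.31e-06). For the Cre group against the control group it was 0.39 ± 0.09 (limma, adjusted p = 0.00509). That last call was lost without the first Cre library (log2 fold change 0.35, limma adjusted p = 0.136) and without the second (0.43, adjusted p = 0.058).

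Pparg (chromosome 6, 115360951 to 115490399), the receptor required for making fat cells and the target of thiazolidinedione drugs, followed the same order of groups with smaller steps. Its counts were 2049 and 2021 in the control group, 3218 and 3130 in the knockdown group, and 2490 and 2422 in the Cre group. Libraries of a group were close together and the groups did not overlap. The log2 fold changes were 0.64 ± 0.05 (limma, adjusted p = 2.22e-08) for knockdown against control, −0.37 ± 0.05 (adjusted p = 9.48e-05) for Cre against knockdown, and 0.27 ± 0.05 (adjusted p = 0.000846) for the Cre group against the control group. The last of these was 0.25 with an adjusted p of 0.0514 in limma without the first Cre library. Ppard (chromosome 17, 28232700 to 28301474), which encodes the widely expressed PPARdelta, had 594 and 603, then 732 and 618, then 680 and 634. Its first knockdown library was high and the second was close to the control group. The log2 difference for knockdown against control was 0.17 ± 0.08, with a 95% interval from 0.00 to 0.34 (limma, adjusted p = 0.145). Without the second knockdown library it passed (0.29, adjusted p = 0.0359).

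The RXR genes encode the shared partners of PPARs and of several other nuclear receptors, and only Rxrg passed the test. Rxrg (chromosome 1, 167598384 to 167639623) had 92.6 and 116 in the control group, 175 and 177 in the knockdown group, and 140.0 and 142 in the Cre group. The 3 groups were in the same order as for Pparg and did not overlap, with the control libraries the most spread. It rose by 0.76 ± 0.14 on the log2 scale in the knockdown group (limma, adjusted p = 0.000356). The difference between the Cre and knockdown groups, −0.32 ± 0.14, did not pass the test (limma, adjusted p = 0.179). The Cre group against the control group gave 0.44 ± 0.14 (limma, adjusted p = 0.0332). Without the first control library that difference was 0.29 (adjusted p = 0.202), and without the first or the second Cre library the adjusted p was 0.175 or 0.189.

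Rxra (chromosome 2, 27676440 to 27762957), the most abundant of the 3 per length of mRNA, stayed within a narrow range: 1223 and 1153, then 1266 and 1250, then 1305 and 1325. Every library with Rbm43 siRNA lay above the control libraries, by little. The 95% interval of its log2 difference for knockdown against control ran from −0.04 to 0.21 (limma, adjusted p = 0.337), and its upper end lies below the interval of Pparg, 0.54 to 0.75. Rxrb (chromosome 17, 34031812 to 34038399) had 524 and 532, then 567 and 557, then 543 and 594, and its interval ran from −0.07 to 0.25 (limma, adjusted p = 0.433). For Cre against knockdown the log2 differences were 0.06 for Rxra and 0.02 for Rxrb (limma, adjusted p = 0.595 and 0.938). Rxra was 0.15 ± 0.06 higher in the Cre group than in the control group, which did not pass (limma, adjusted p = 0.102); without the first control library it did (0.19, adjusted p = 0.0275).

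**Figure D1:**
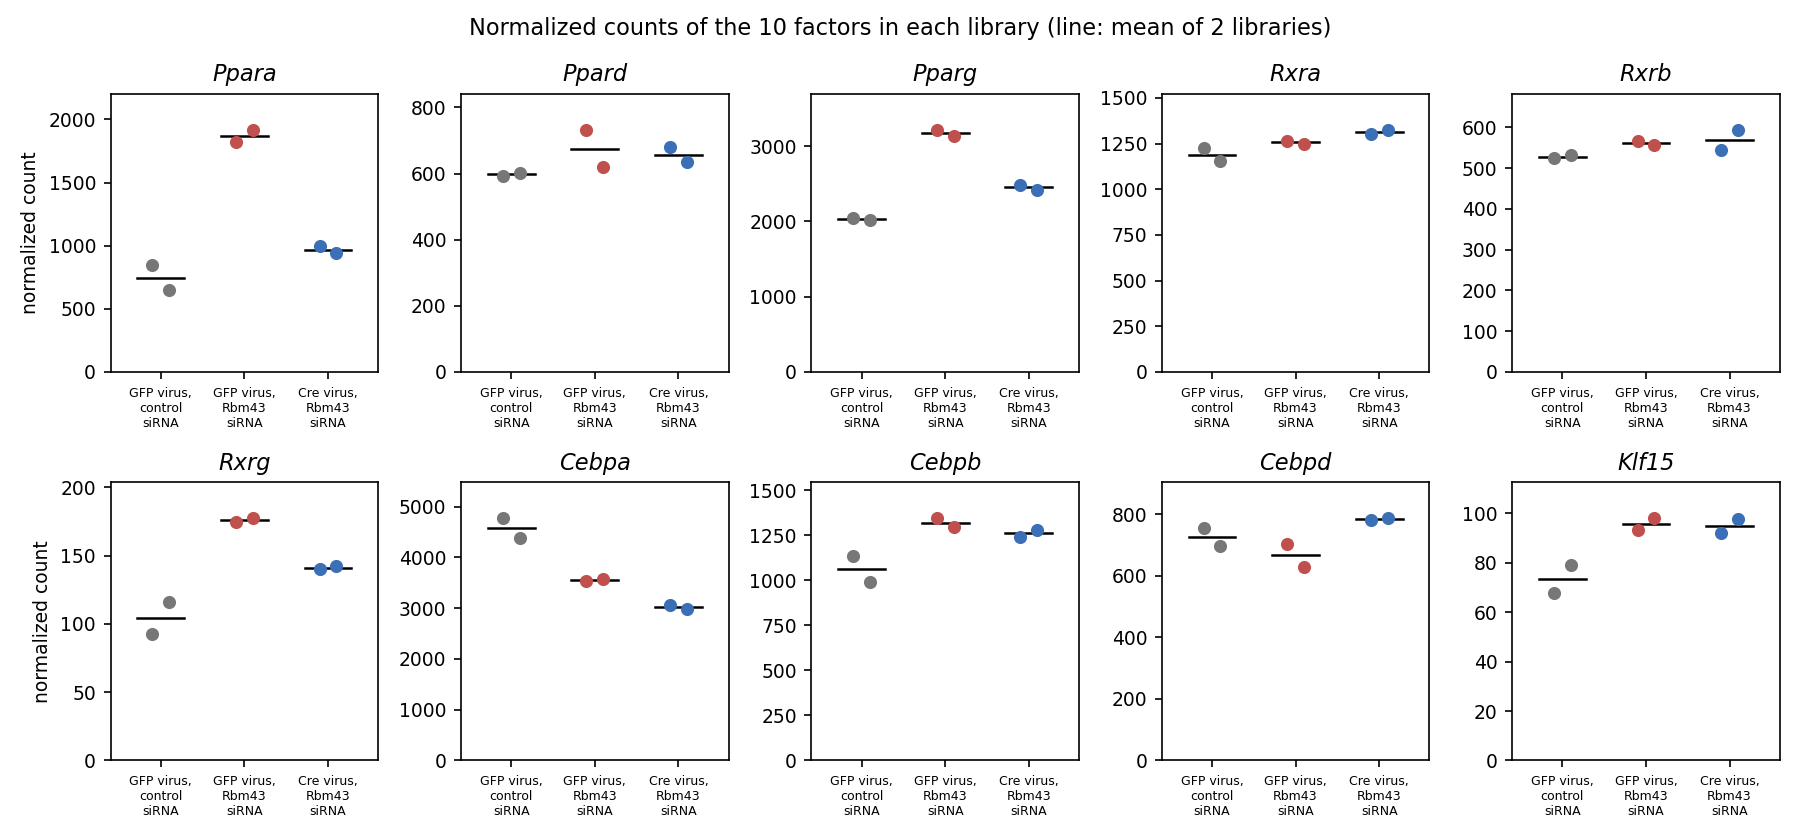
Normalized count of each of the 10 factors (y axis, from 0) in each library, with points for libraries coloured by group and a line at the mean of 2 libraries. Ppara, Pparg and Rxrg peak in the knockdown group, while Cebpa steps down from 4768 and 4373 in the control group to 3063 and 2980 in the Cre group.

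Cebpa (chromosome 7, 35119293 to 35121928) encodes C/EBPalpha, the factor that with PPARgamma maintains the adipocyte program and insulin-responsive glucose uptake. Its counts were 4768 and 4373 in the control group, 3531 and 3569 in the knockdown group, and 3063 and 2980 in the Cre group. Each group lay wholly below the one before, so Cebpa ran against Pparg in the first comparison and with it in the second. The log2 fold changes were −0.36 ± 0.05 (limma, adjusted p = 3.08e-05) for knockdown against control, −0.23 ± 0.05 (adjusted p = 0.0064) for Cre against knockdown, and −0.60 ± 0.05 (adjusted p = 1.88e-07) for the Cre group against the control group. The fall in the Cre group lost its call without the second knockdown library (adjusted p = 0.0732) and without either Cre library (adjusted p = 0.0968 and 0.173). Its size then ranged only from −0.21 to −0.25.

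Cebpb (chromosome 2, 167688915 to 167690418), an early factor of adipogenesis that is also induced by cAMP and inflammatory signals, had 1132 and 992, then 1343 and 1295, then 1239 and 1279. All 4 libraries with Rbm43 siRNA were above both control libraries, and the Cre and knockdown libraries were close together. It rose by 0.32 ± 0.07 in the knockdown group (limma, adjusted p = 0.00147) and was 0.25 ± 0.07 higher in the Cre group than in the control group (limma, adjusted p = 0.0142). The latter call was lost without the second control library (0.15, adjusted p = 0.0969) and without either Cre library (adjusted p = 0.11 and 0.182). Tmem189 overlaps Cebpb on the other strand, and the strand setting of the counting is not given in the sources used here. Gene models on the other strand also overlap Cebpa (Gm45091) and Pparg (Gm44079) and were not analysed here. The counts of Tmem189 over its whole length were 683 and 646, then 648 and 581, then 574 and 649. They do not separate reads from the 908 bases shared with Cebpb, and the part of such reads in the counts of Cebpb was not tested.

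Cebpd (chromosome 16, 15887286 to 15891031), the other early factor, had 756 and 697 in the control group, 703 and 629 in the knockdown group, and 779 and 786 in the Cre group. The first 2 groups overlapped, and the Cre libraries were the highest. Its log2 difference between the Cre and knockdown groups was 0.24 ± 0.07, just outside the threshold (limma, adjusted p = 0.0526), and 10 of 18 other settings put it inside. Among these were the fits without the first or the second control library (adjusted p = 0.00939 and 0.0087) and without the first knockdown library (0.32, adjusted p = 0.0391). Spidr, which overlaps Cebpd on the other strand, had 506 to 619 normalized counts. Klf15 (chromosome 6, 90462576 to 90475238), which is induced by glucocorticoids and raises glucose transporter Slc2a4 in adipocytes, was the least abundant of the 10, also per length: 67.6 and 79.1, then 93.2 and 97.9, then 92.0 and 97.5. Both Rbm43 siRNA groups lay above the control group and on top of each other. The log2 difference for knockdown against control was 0.38 ± 0.16 with an interval from 0.05 to 0.71 (limma, adjusted p = 0.0949).

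Counted together, 5 of the 10 factors passed the test for knockdown against control, 4 higher and 1 lower, where 23.2% of all tested genes passed, 13.5% higher and 9.76% lower. The median log2 fold change of the 10 was 0.24, against −0.0056 over all genes. For Cre against knockdown 3 of 10 passed, all lower, where 8.5% of all genes passed, 2.62% higher and 5.88% lower, and the median was −0.05 for the 10 and 0.0022 over all genes. For the Cre group against the control group 5 of 10 passed, 4 higher and 1 lower, where 14.7% of all genes passed, 8.47% higher and 6.28% lower, and the median was 0.20 for the 10 and −0.0018 over all genes. Fitted without the mean-variance trend, limma gave adjusted p = 0.119 for Ppara and Pparg and 0.203 for Cebpa for Cre against knockdown, so that these 3 calls were lost, and 1 of the 5 calls for Cre against control was left, Cebpa. With no filter on low genes, or with DESeq2, 2 of the 5 calls for Cre against control were left, Pparg and Cebpa. With 10 genes these shares are coarse. The comparisons share libraries, so the mirrored values of Ppara and Pparg in the first pair of comparisons rest in part on the same 2 knockdown libraries.

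**Figure D2:**
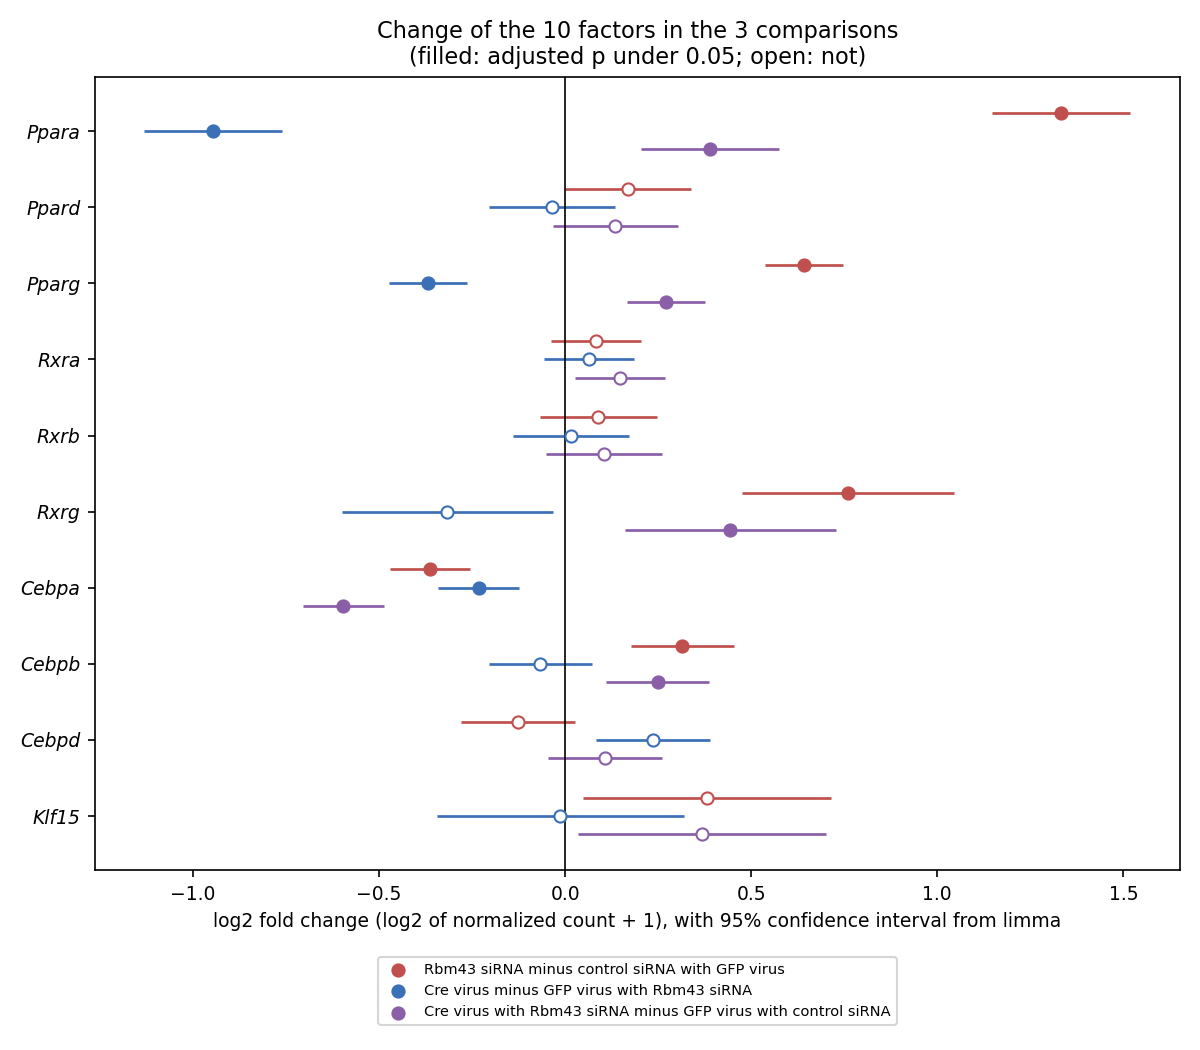
Log2 fold change of each factor (x axis) in the 3 comparisons, with the 95% confidence interval from limma; filled points passed an adjusted p of 0.05 and open points did not. Ppara spans from 1.33 for knockdown against control to −0.95 for Cre against knockdown, Cebpa lies left of 0 in all 3 comparisons, and the intervals of Rxrb cross 0 in all 3.

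Levels were compared between genes only per length, as normalized counts per kb of exons (union of exons in GENCODE M21). In the control group the order was Cebpa at 1734 ± 106 (SD, n = 2 here and below), Cebpb at 706.1 ± 65.7, Pparg at 689.1 ± 6.9, Rxra at 217.5, Ppara at 194.8 ± 37.1, Cebpd at 194, Rxrb at 132.9, Ppard at 79.62, Rxrg at 45.32 and Klf15 at 26.29. Cebpb and Pparg did not differ beyond their spread, and neither did Ppara from Rxra or from Cebpd, while both Rxra libraries lay above both Cebpd libraries. In the knockdown group Ppara, at 486.9 ± 18.4, had moved above Rxra at 230.3, and Pparg, at 1075 ± 21.2, above Cebpb at 876.9 ± 22.7. In the Cre group Pparg at 831.8 ± 16.2 and Cebpb at 837.1 ± 18.6 were again level within their spread, and Ppara at 252.7 ± 10.3 was close to Rxra at 240.8. This order depends on the length used, for Pparg and for some other genes. Cebpa led in all 3 groups by the union of exons, but with the length of the longest transcript Pparg led in the knockdown group, at 1494 ± 29.5 against 1352 ± 10.3 for Cebpa, and the pair was level within its spread in the Cre group, at 1156 ± 22.5 and 1151 ± 22.2. By that length Pparg also lay above Cebpb in all 3 groups, at 957.6 against 706.1 in the control group, 1494 against 876.9 in the knockdown group and 1156 against 837.1 in the Cre group. The mean of Rxrb was then above that of Cebpd in all 3 groups, clear of it in the knockdown group at 213.9 ± 2.75 against 177.8 ± 14. Ppard, at 181.2 ± 21.6, was level with Cebpd in the knockdown group within their spread.

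Ratios between factors within a library do not depend on the size factors. Per length, Pparg was 0.384 and 0.412 of Cebpa in the control group, 0.814 and 0.783 in the knockdown group, and 0.726 and 0.726 in the Cre group. All 4 libraries with Rbm43 siRNA stood far above the control libraries in this ratio. Ppara was 0.319 and 0.246 of Pparg in the control group, 0.435 and 0.472 in the knockdown group, and 0.308 and 0.299 in the Cre group, where the Cre and control libraries overlapped. The ratio of Cebpb to Cebpa was 0.416 and 0.398, then 0.667 and 0.636, then 0.709 and 0.752, and it was highest in the Cre group. With another length per gene the ratios scale by a constant, and their order over the libraries is unchanged.

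**Figure D3:**
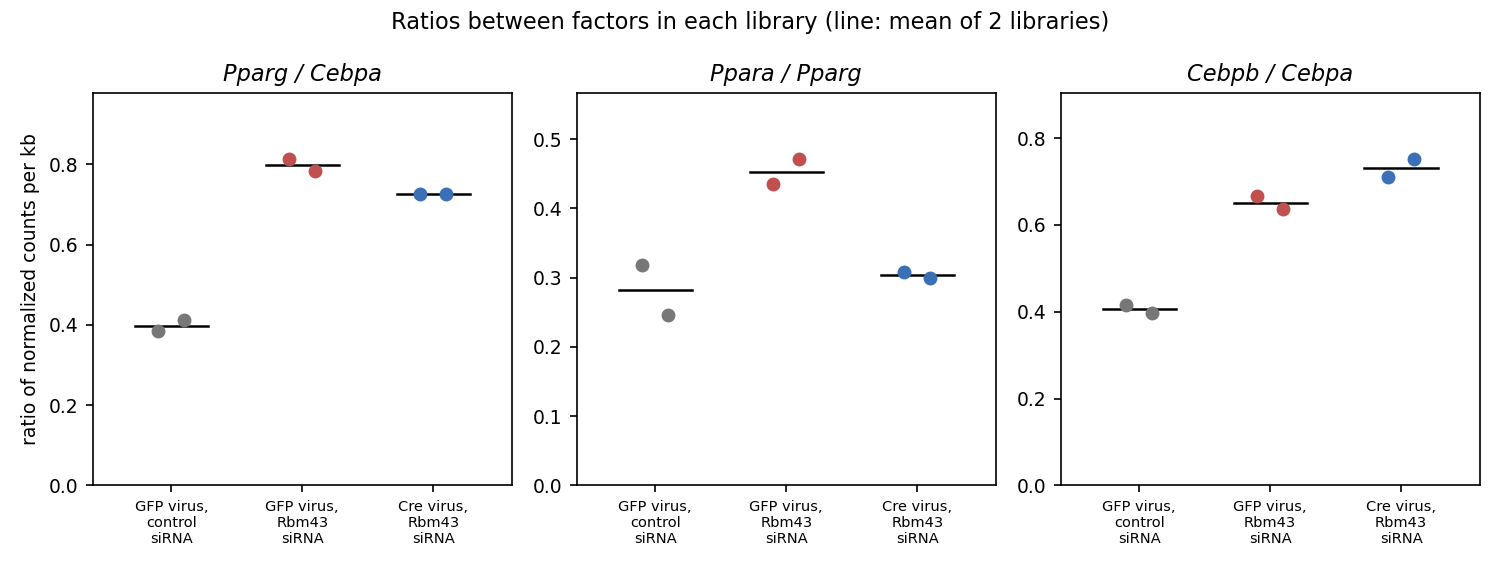
Ratio of normalized counts per kb between pairs of factors (y axis, from 0) in each library, with a line at the mean of 2 libraries in each group. Pparg relative to Cebpa lies at 0.384 and 0.412 in the control group and at 0.726 or more in the 4 libraries with Rbm43 siRNA.

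Summed within each family, PPAR mRNA per length was 963 ± 43.2 in the control group, 1652 ± 13.5 in the knockdown group, and 1172 ± 30.8 in the Cre group. RXR mRNA was 396 ± 0.703, 448 ± 3.18 and 445 ± 12.4 in the same order. The summed PPARs exceeded the summed RXRs in every library. C/EBP mRNA was 2634 ± 183, 2401 ± 26.5 and 2192 ± 2.18, and stepped down from group to group. Within the families, Ppara made up 22.2% and 18.1% of PPAR mRNA in the control group, 28.5% and 30.5% in the knockdown group, and 21.8% and 21.3% in the Cre group. Rxrg made up 10.2% and 12.7% of RXR mRNA, then 16.9% and 17.3%, then 14.0% and 13.6%. Cebpa made up 65.5% and 66.2% of C/EBP mRNA, then 55.4% and 56.8%, then 53.0% and 51.6%, and Cebpb 27.2% and 26.3%, then 36.9% and 36.1%, then 37.6% and 38.8%. These sums and shares are by the union of exons and shift with the length used. By the longest transcript, Ppara made up 18.1% and 14.55% of PPAR mRNA, then 23.74% and 25.53%, then 17.75% and 17.39%, in the same order of groups.

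**Figure D4:**
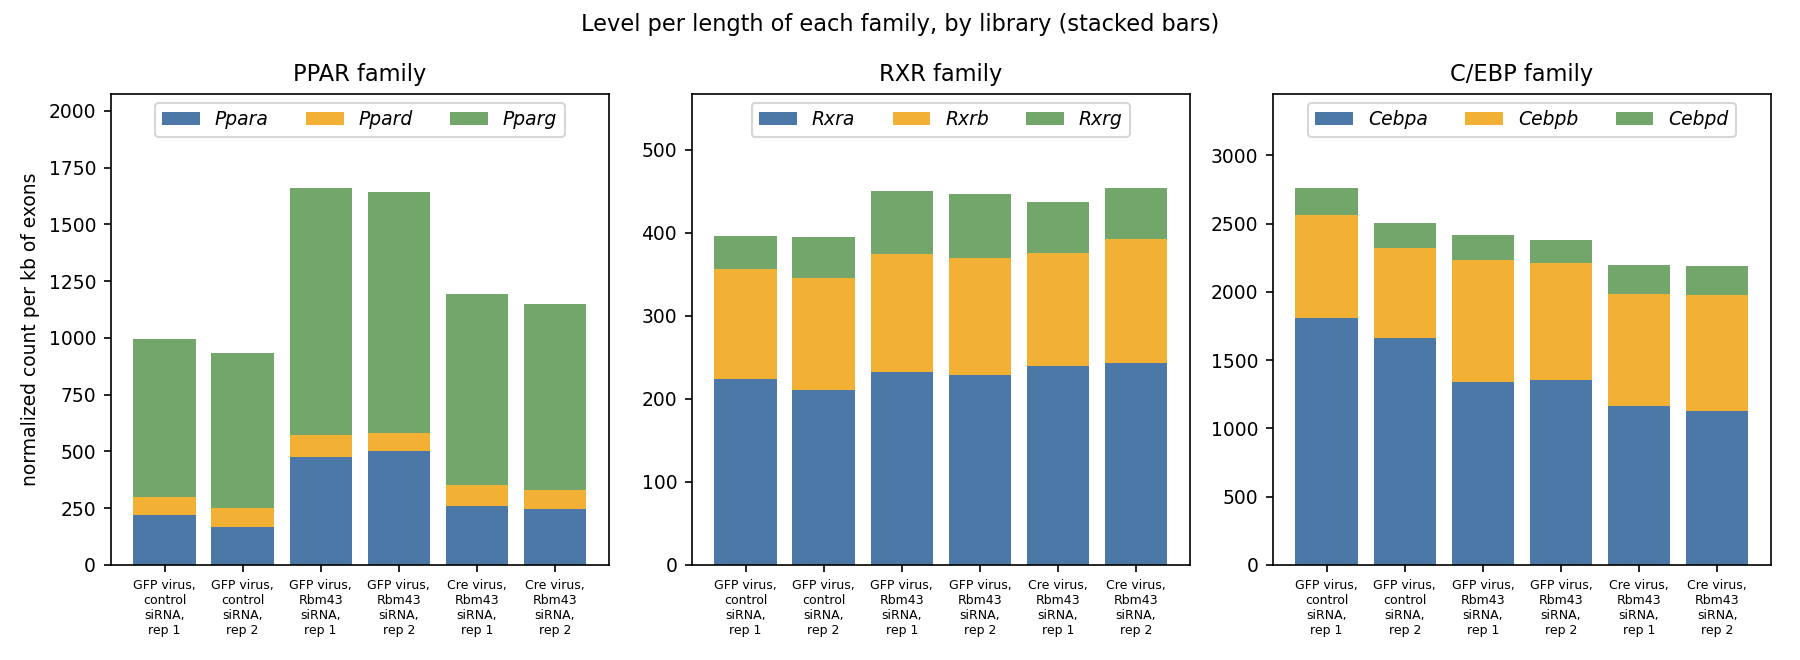
Stacked bars of normalized counts per kb of exons (y axis, from 0) for the members of each family in each of the 6 libraries. The PPAR bars are tallest in the knockdown group, at 1661 and 1642, while the C/EBP bars step down from 2763 and 2505 in the control group to 2194 and 2191 in the Cre group.

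Genes that these factors are known to activate were read from the same fit, and their counts and medians can be set beside the shares called and the medians of all genes just given. Of 20 PPARgamma targets in adipocytes, 14 rose and 2 fell in the knockdown group, with a median log2 fold change of 0.22. Among those that rose were the lipid droplet protein gene Cidea (2.05 ± 0.07), the uncoupling protein gene Ucp1 (1.87 ± 0.09), and the glycerol metabolism genes Gk (1.00 ± 0.06) and Gpd1 (0.85 ± 0.06), with limma adjusted p from 5.92e-13 to 7.26e-09. The 2 that fell were the glycerol channel gene Aqp7 (−0.36 ± 0.07) and Pck1 (−0.39 ± 0.07), an enzyme of glyceroneogenesis. In the Cre group against the knockdown group none rose and 15 fell, with a median of −0.27. Cidea (−1.24 ± 0.07), Ucp1 (−1.10 ± 0.09), Gk (−0.50 ± 0.06) and the adipokine gene Adipoq (−0.32 ± 0.05) had the smallest adjusted p in limma, from 1.46e-08 to 0.000178. That count was 7 without the first Cre library and 9 without the second, and still none rose. Without the mean-variance trend limma called 0 genes of the table in this comparison (2355 at an unadjusted p under 0.05, where edgeR called 1336 and DESeq2 838), so these calls and those of the PPARalpha targets below were lost. The counts of PPARgamma targets were then 9 higher and 0 lower for knockdown against control, and 2 and 1 for the Cre group against the control group. For the Cre group against the control group 7 rose and 4 fell, with a median of 0.04, and Aqp7 (−0.78 ± 0.07) and Pck1 (−0.66 ± 0.07) were then lower than in either other group. Without either Cre library 4 rose.

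Of 24 PPARalpha targets, most of them genes of fatty acid oxidation, 14 rose and none fell in the knockdown group, with a median of 0.37. The thiolase gene Acaa2 had 5487 and 5188 normalized counts in the control group, 9417 and 9287 in the knockdown group, and 5869 and 5902 in the Cre group. The knockdown libraries stood apart from the other 4. Its log2 fold changes were 0.81 ± 0.05 for knockdown against control and −0.67 ± 0.05 for Cre against knockdown (limma, adjusted p = 6.8e-10 and 1.3e-07). Ehhadh, Etfdh and Hadhb, which also act in fatty acid oxidation, rose by 0.81, 0.66 and 0.56 in the knockdown group. In the Cre group against the knockdown group 16 of 24 fell and none rose, with a median of −0.36. The muscle and heart fatty acid binding protein gene Fabp3 had 81.1 and 93.7, then 111 and 116, then 18.6 and 29.0, and fell below its control level in the Cre group (−1.86 ± 0.21 against control, limma, adjusted p = 4.9e-06). In that last comparison 5 of 24 rose, Plin2, Ehhadh and Etfdh among them, and 5 fell, of which 2 and 3 were called without the first and the second Cre library.

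Of 11 C/EBP targets, 5 rose and 3 fell in the knockdown group, and the medians over the 3 comparisons were 0.16, −0.03 and 0.08. Retn, the gene for resistin and a known target of C/EBPalpha, had 1513 and 1364 normalized counts in the control group, 515 and 457 in the knockdown group, and 433 and 439 in the Cre group. Its groups were in the same order as those of Cebpa, with a log2 fold change of −1.56 ± 0.08 for knockdown against control (limma, adjusted p = 6.48e-11). Cfd, the gene for adipsin, fell too (−0.38 ± 0.06), while the glucose transporter gene Slc2a4 (0.67 ± 0.07) and the acute-phase gene Lcn2 (0.69 ± 0.11) rose. In the Cre group against the knockdown group only Slc2a4 of the 11 passed the test (−0.59 ± 0.07, limma, adjusted p = 2.59e-05). Against control, the Cre group gave 4 higher, Lcn2 and Saa3 among them, and 4 lower, and leaving out either Cre library gave 2 and 2. Of 6 KLF15 targets, Slc2a4 and Acss2 rose and Pck1 fell in the knockdown group, and 4 fell in the Cre group against the knockdown group, a count of 2 without either Cre library or without the second knockdown library. The KLF15 list medians were 0.23, −0.28 and −0.02. Slc2a4 is also in the C/EBP list and Pck1 in the PPARgamma list.

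**Figure D5:**
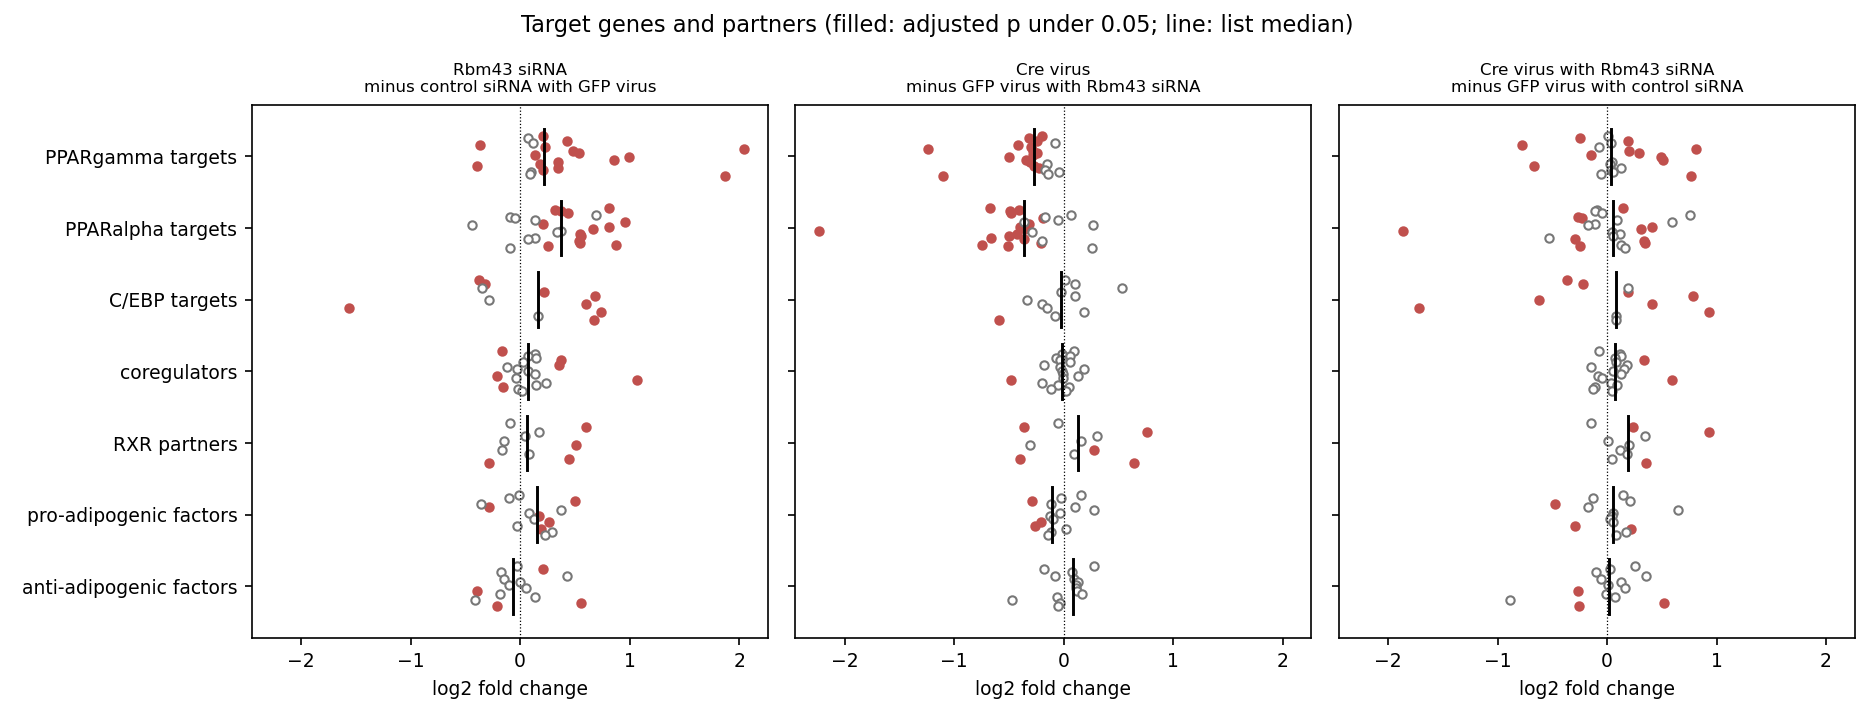
Log2 fold change (x axis) of each tested gene in 7 lists of targets, coregulators and related factors, in the 3 comparisons; filled points passed an adjusted p of 0.05, open points did not, and the black line is the list median. The PPARgamma and PPARalpha targets have medians of 0.22 and 0.37 for knockdown against control, −0.27 and −0.36 for Cre against knockdown, and 0.04 and 0.05 in the comparison of the Cre group against the control group.

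Adipocyte markers and genes of other cells moved beside these results. The summed normalized counts of 8 adipocyte markers, mostly Fabp4, were 192932 and 177461 in the control group, 252252 and 253654 in the knockdown group, and 211345 and 213229 in the Cre group. That order is the order of Pparg, and 5 of the 8 markers are in the PPARgamma target list. Of the 8, 4 rose and 2 fell in the knockdown group, and 5 fell in the Cre group against the knockdown group. For this list and those below, 13.5% of all tested genes rose and 9.76% fell in the knockdown group. In the Cre group 2.62% rose and 5.88% fell against the knockdown group, and 8.47% rose and 6.28% fell against the control group. With lists this short such counts are coarse. Preadipocyte and fibroblast markers, mostly Col1a1, summed to 331928 or more in the control group and to between 287335 and 313606 in the 4 libraries with Rbm43 siRNA. Of 7 tested, 3 fell in the knockdown group against the control group and 4 were not called. Mural cell markers, mostly Acta2, summed to 49908 to 55201 in the control group, 56881 to 59300 in the knockdown group, and 67949 to 71046 in the Cre group. Of these, 4 of 6 rose in the Cre group against the knockdown group. Macrophage markers summed to between 1415 and 1735 in all libraries, and the list was mixed for knockdown against control. Of 8 markers 3 fell, Csf1r (−0.57 ± 0.13), Itgam (−0.68 ± 0.21) and Cd14 (−0.56 ± 0.18), named after their values were seen. Cd68 (0.40 ± 0.15), Mrc1 (0.30 ± 0.18) and Adgre1 (0.06 ± 0.11) went the other way and did not pass. Endothelial markers summed to 250 and 251 in the control group, 276 and 286 in the knockdown group, and 320 and 348 in the Cre group, and 1 of 6 was higher in the Cre group than in the control group. The part of these cells in the changes of the 10 factors was not tested.

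Nuclear receptors act through coregulators, which they recruit to the genes they bind. Of 19 coactivators and corepressors of PPAR and RXR, 3 rose and 3 fell in the knockdown group, where 13.5% of all tested genes rose and 9.76% fell, so the number that rose is near that background. The medians over the 3 comparisons were 0.07, −0.02 and 0.07. Ppargc1b, the gene for PGC-1beta and a relative of PGC-1alpha, had 295 and 276 normalized counts in the control group, 584 and 617 in the knockdown group, and 443 and 419 in the Cre group. It was highest in the same libraries as Pparg, with log2 fold changes of 1.07 ± 0.08 for knockdown against control and −0.48 ± 0.08 for Cre against knockdown (limma, adjusted p = 1.97e-08 and 0.000878). The coactivator genes Ncoa1 (0.36 ± 0.06) and Helz2 (0.37 ± 0.07) rose in the knockdown group. The count of 3 that fell was 1 without any 1 of the 4 libraries with Rbm43 siRNA, and the count of 3 that rose was 5 without the second control library. In the Cre group against the knockdown group Ppargc1b was the only one called, and its call was lost without the second Cre library. Of all tested genes 5.88% fell in that comparison, so 1 of 19 is near that background.

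Of 13 other receptors that pair with RXR, 10 were tested. Nr1h3, the gene for the oxysterol receptor LXRalpha, rose by 0.60 ± 0.08 in the knockdown group and fell by 0.36 in the Cre group against the knockdown group (limma, adjusted p = 1.17e-05 and 0.00569). The thyroid hormone receptor gene Thrb did likewise (0.44 ± 0.08 and −0.40 ± 0.08). The vitamin D receptor gene Vdr went the other way, with 483 and 435 normalized counts, then 385 and 368, then 548 and 626, a log2 fold change of −0.28 ± 0.09 for knockdown against control and 0.64 ± 0.09 for Cre against knockdown (limma, adjusted p = 0.0222 and 9.26e-05). Of all tested genes 13.5% rose and 9.76% fell in the knockdown group, and 2.62% rose and 5.88% fell in the Cre group against the knockdown group. Across these 10 receptors 3 rose and 1 fell in the knockdown group. Then 3 rose and 2 fell in the Cre group against the knockdown group, with medians of 0.06 and 0.13 for the 2 comparisons. The Cre counts were 1 and 0 without the second knockdown library, and 1 and 0 without the second Cre library. The fall of Vdr in the knockdown group lost its call without either knockdown library or the first control library.

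Of 14 other transcription factors that act for adipogenesis, 4 rose in the knockdown group, Ebf2 (0.50 ± 0.07), the lipogenic factor gene Srebf1 (0.26 ± 0.05) and Nfia (0.17 ± 0.05) among them, and Klf4 fell (−0.29 ± 0.07). The count that rose was 2 without the second knockdown library or either Cre library, and the fall of Klf4 lost its call without the second knockdown or the second control library. In the Cre group against the knockdown group 3 fell, Srebf1, Ebf2 and Stat5a, a count of 0 without either Cre library or the second knockdown library. Of 15 factors that act against adipogenesis 14 were tested, and Wwtr1, the gene for the YAP relative TAZ, rose by 0.56 ± 0.05 in the knockdown group and was 0.52 ± 0.05 higher in the Cre group than in the control group (limma, adjusted p = 1.11e-07 and 5.93e-07). Runx2 (−0.39 ± 0.08) and Zfp521 (−0.21 ± 0.06) fell in the knockdown group, a count of 1 without the first knockdown library or either Cre library. The count of 2 that rose was 1 without any 1 library other than the first control library. The lists of factors for and against adipogenesis each held members that moved in both directions in the knockdown group, with medians of 0.15 and −0.06. Of all tested genes 13.5% rose and 9.76% fell there, so the 2 that rose and the 2 that fell of the 14 factors against adipogenesis are near that background. In the Cre group against the knockdown group 5.88% of all tested genes fell.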

How the data were processed

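The authors deposited 1 table of normalized signal: gene read counts, each divided by a size factor of its library. Per the submitters' processing notes the tools were fastp 0.23.2, STAR 2.7.8 and DESeq2 2.11.40.7 on mm10, while the counter is not given in the sources used here, nor are annotation and strand setting. Deposited values were all whole multiples of 1 read within 0.01 read (100% of values), and 1 read was worth 0.878 to 1.217 normalized counts.

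Groups came from the sample titles. The 14211 genes reaching 10 normalized counts in 2 or more libraries entered limma 3.58.1 in R 4.3.3 (log2(normalized count + 1), mean-variance trend, 6 libraries fitted together, 3 residual degrees of freedom), with Benjamini-Hochberg adjustment at 0.05. This scale understates changes of low genes. Alternatives were pseudocounts of 0.5 and 5, no filter, a minimum of 50, 3 other scalings, a replicate block, no trend, only the groups compared, each library left out, and, on reads recovered from the table, DESeq2 1.42.0 and edgeR 4.0.16, where edgeR called 3263, 1336 and 2111 genes. The procedure was tested on simulated data with the same spread beyond counting noise in all genes and groups. That test does not cover a spread that differs between groups. Same-numbered libraries did not deviate together (r = 0.019, −0.042 and −0.037), so numbers were not taken to pair samples. Lengths are from GENCODE M21 on mm10.

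The 10 factors, the gene lists and the tests were chosen with earlier results of these data known. All 10 factors are named, with up to 4 genes of the smallest p per list and comparison, Rbm43 and Ppargc1a as checks, and the 3 genes most like each of Pparg, Ppara, Cebpa and Klf15. Other genes with values, Tmem189, Spidr and the markers Fabp4, Adipoq, Lep, Col1a1, Acta2, Dpp4 and Rgs5, bear on a result. Aqp7 and Pck1 are named for moving against their list, and macrophage markers for their calls or for going the other way. A few genes that these rules name are not reported here.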

Additional observations from a re-analysis of the deposited data

How the results depend on the processing

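No factor that passed changed direction under any of the 18 alternatives. Among factors that did not pass, the difference between Cre and knockdown kept its sign in 16 of 18 alternatives for Ppard (−0.16 to 0.09), 17 for Rxrb (−0.05 to 0.08) and 15 for Klf15 (−0.05 to 0.03). For the knockdown group against the control group (5 factors, 3301 genes), Ppara, Pparg, Rxrg and Cebpa passed under all 18 alternatives and Cebpb under 17. All-gene counts were 1304 without the mean-variance trend, 2035 with DESeq2, and 2101 to 3634 with each library left out, lowest without the second knockdown library. For Cre against knockdown (3 factors, 1208 genes), limma without the trend called 0 factors and 0 genes (5 and 2355 at an unadjusted p under 0.05), where edgeR called 4 and 1336 and DESeq2 3 and 838. No filter gave 609 genes, only the groups compared gave 2070, and each library left out gave 310 to 2067, lowest without the first Cre library (329 without the second Cre library, 457 without the second knockdown library, 2060 and 2067 without either control library). Leaving out a library left 2 to 4 factors. For Cre against control (5 factors, 2096 genes), no filter gave 2 factors and 1251 genes, no trend 1 and 433, and DESeq2 2 and 1220. Each library left out gave 1 to 5 factors and 765 to 2647 genes, lowest without the first Cre library (2 and 826 without the second). Cebpa alone passed there under all 18 alternatives, against 16 for Pparg, 13 for Ppara, 12 for Cebpb and 11 for Rxrg. The cause of these shifts was not tested. A fit with a replicate block called 5, 4 and 5 factors and 3412, 1304 and 2214 genes, Cebpd being the factor added for Cre against knockdown (limma, adjusted p = 0.0343). With 2 libraries a group, a p that misses the threshold does not show equal levels, and depth limits Klf15 and Rxrg most.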

Other observations

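The genes most like 4 of the factors over the 6 libraries were read out by a rule, among genes whose normalized counts averaged 100 or more and whose spread was within 2-fold of that of the factor. These are descriptions over 6 libraries in 3 groups, so any gene with the same 3 group levels ranks high, and no p is given. Closest to Pparg was Gpd2, the mitochondrial glycerol 3-phosphate dehydrogenase gene (Pearson r = 0.998 over 6 libraries, among 3136 genes), with 727 and 725, then 1225 and 1150, then 914 and 893 normalized counts. Ndufaf1, a complex I assembly factor gene, and the histone gene Hist1h4h followed (r = 0.998 and 0.997). Closest to Ppara, among 354 genes, were the respiratory chain genes Cyc1 and Cox8b and the pyruvate dehydrogenase kinase gene Pdk2 (r = 0.996, 0.996 and 0.995). Cox8b had 191 and 150, then 350 and 385, then 232 and 215. Closest to Cebpa, among 3551 genes, were Mpv17, Zeb2os and the adenosine receptor gene Adora1 (r = 0.994, 0.994 and 0.993), and Adora1 had 1012 and 921, then 690 and 713, then 557 and 503. Among the genes closest to Klf15, of 5430 genes, were Gdf10 and Cd47 (r = 0.997 and 0.991).

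Relatives of the factors were read from the same fit. Of all tested genes, 9.76% fell in the knockdown group against the control group, and 2.62% rose in the Cre group against the knockdown group. Of 12 tested KLF genes other than Klf15, Klf4 fell in the knockdown group against the control group (−0.29 ± 0.07, limma, adjusted p = 0.00866; lost without the second knockdown or the second control library), and Klf6 (0.21 ± 0.06) and Klf10 (0.24 ± 0.07) rose in the Cre group against the knockdown group (adjusted p = 0.024 and 0.0437). The last 2 calls were lost when any 1 of the 4 libraries of these 2 groups was left out. Of the other C/EBP relatives, Ddit3 was 0.20 lower on the log2 scale in the knockdown group (log2 fold change −0.20, limma, adjusted p = 0.045), a call lost without any 1 of those libraries, and Cebpg was lower in the Cre group than in the control group (−0.21, adjusted p = 0.0205), a call lost without the second control library or either Cre library.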
